A study of Homo sapiens with 8 samples.

Results

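Serum given to resting cells switches on a set of early transcription factors and regulators within minutes to hours, and 10 of them are described here: EGR1, EGR2, EGR3, NR4A1, KLF4, KLF6, KLF10, ZFP36, BTG2 and SRF. They were taken by gene symbol from the deposited count table, where all 10 were found among 14668 genes. The cells were T3M4, an established line from a human pancreatic cancer. The groups were sgMETTL13 cells, which carried a guide RNA against METTL13, and sgControl cells, which carried a guide RNA with no target. METTL13 is the methyltransferase of the translation elongation factor eEF1A. All cells spent 18 h without serum and then 2 h with 10% fetal bovine serum, so no serum-free sample was analysed here and the induction itself was not measured. Each guide had 2 libraries of poly(A) mRNA and 2 of ribosome footprints, the pieces of mRNA shielded by ribosomes from nuclease, here pulled down with a puromycin analog that binds active ribosomes; the 8 libraries came from cleared lysates. Whether either arm was 1 clone or a pool is not given in the sources used here, nor is the origin of the replicates, so each p-value covers the spread among these libraries, which may be technical.

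Serum reaches these genes along known routes. The ERK kinase pathway phosphorylates ternary complex factors such as ELK1, which sit on DNA beside serum response factor (SRF), and actin dynamics release the SRF partners MRTFA and MRTFB. SRF binds a short palindromic element, the CArG box, and no new protein has to be made before transcription of its early targets starts. The EGR genes encode zinc finger activators that bind GC-rich sites, NR4A1 (Nur77) is an orphan nuclear receptor, and KLF4, KLF6 and KLF10 are Krüppel-like zinc finger factors. ZFP36 (tristetraprolin) brings mRNAs with AU-rich elements to decay, and BTG2 is an antiproliferative protein that links the deadenylase complex to mRNAs.

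The promoters show which of the members that could be searched carry the serum element close to their start. RefSeq (GRCh38.p14) gave 12 promoter windows for 8 of the 10 genes, each from 250 bases before to 50 bases after a transcript start, and both strands were searched. EGR3 and KLF10 had no window, so nothing is known here of motifs in their promoters. A CArG box, here the exact letters CCWWWWWWGG with W for A or T, was searched. It lay in 3 of the 12 windows, 1 each of EGR1, EGR2 and SRF, against 1.29% of all 35116 windows in the table. Boxes with a mismatch or outside these windows were not searched, so a gene without a match may still carry one. The stretches around these boxes are printed 5′ to 3′ along the gene, with the CArG boxes in capitals, because SRF reads the serum signal through this element.
EGR1, chr5:138465364-138465415, plus strand, bases -115 to -64 from the start: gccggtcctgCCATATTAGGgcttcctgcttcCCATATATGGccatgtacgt
EGR2, chr10:62816418-62816447, minus strand, bases -81 to -52 from the start of window 3: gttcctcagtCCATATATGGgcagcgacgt
SRF, chr6:43171229-43171268, plus strand, bases -40 to -1: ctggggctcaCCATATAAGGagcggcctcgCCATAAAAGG
EGR1 and SRF each held 2 boxes, and EGR2 held 1 whose 10 bases equal the second box of EGR1.

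A second element, the EGR site GCGNGGGCG, lay in 6 of the 12 windows (1 each of EGR1, EGR2, KLF4, KLF6, BTG2 and SRF), against 9.43% of all windows. In EGR2 it lay after the start and in the others before it. BTG2 held 2 such sites, and it is shown with KLF6, EGR sites in capitals, because this is the element that EGR proteins recognise.
BTG2, chr1:203305337-203305386, plus strand, bases -182 to -133: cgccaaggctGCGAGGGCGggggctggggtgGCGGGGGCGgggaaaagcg
KLF6, chr10:3785256-3785284, minus strand, bases -75 to -47: ggggagccagGCGGGGGCGgagggggagg
The ETS core CCGGAA lay in windows of NR4A1 and SRF (17.2% of all windows) and the cyclic AMP element TGACGTCA in none of the 12 (1.85% of all windows). No 2 of these motifs overlapped in a member's window. A match of letters is a description of the window and says nothing of binding in these cells.

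The libraries differed in depth and spread. RNA libraries held 20860953 to 48353722 counts and footprint libraries 6063885 to 9837253, and a count of 0, which allows 3 counts, stood for up to 0.512 footprint CPM (depth-scaled counts with TMM factors, the unit of every level given here) in sgControl replicate 2, counting error alone considered. Over genes, log2 values of replicates 1 and 2 differed with an SD of 0.812 for sgMETTL13 and 0.340 for sgControl in RNA, and of 0.254 for sgMETTL13 and 0.298 for sgControl in footprints. METTL13, the targeted gene, read 20.1 and 26.2 footprint CPM in sgMETTL13 libraries against 65.1 and 57.7 in sgControl libraries, with a log2 fold change of -1.41. Its mRNA read 25.2 and 35.0 CPM in sgMETTL13 libraries against 89.7 and 71.4 CPM in sgControl libraries. The mRNA log2 fold change was -1.42 (SE 0.406, edgeR unadjusted p = 0.00457), which did not pass after adjustment. All 5 epithelial markers (EPCAM, KRT8, KRT18, KRT19 and CDH1) were present, at a summed 1559 to 1658 footprint CPM, while the 2 leukocyte markers in the table summed to at most 0.483 CPM and the 3 endothelial markers to at most 1.196 footprint CPM. The 4 fibroblast markers in the table summed to 21.6 to 25.1 footprint CPM, most of it from COL1A1. Over the 8 libraries of both assays COL1A1 reached at most 31.9 CPM, LUM 4.81 CPM, PDGFRB 0.242 CPM and COL3A1 0.110 CPM.

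Footprints of NR4A1 and EGR1 rose in sgMETTL13 cells, and no member fell by the test. Of the 6 members with enough footprints to test, 2 passed edgeR's quasi-likelihood test at an adjusted p below 0.05, both upward, where 21.0% of all 10714 genes tested passed, 8.94% upward and 12.0% downward. At an unadjusted p below 0.05 there were 3 members, KLF4 with them, beside 34.6% of all genes. The 6 members had a median log2 fold change of 0.06, beside 0.01 over all genes tested. With 6 members this count is a description of these genes and not a property of the group.

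NR4A1, on chromosome 12 at 52022832 to 52059503, gave the clearest difference. It read 109 and 130.2 footprint CPM in sgMETTL13 libraries, against 65.0 and 60.6 CPM in sgControl libraries. Both sgMETTL13 libraries lay above both sgControl libraries, and the gap between the arms was wider than the gap within either. The log2 fold change was 0.93 (SE 0.142, n = 2 per arm, edgeR adjusted p = 4.32e-05), a fold of 1.90. It stayed between 0.80 and 1.04, and past the threshold, with any 1 of the 4 footprint libraries left out. NR4A1 lost its call when all 8 libraries were fitted together (edgeR adjusted p = 0.433), a fit in which 0 of 10714 genes passed.

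EGR1, on chromosome 5 at 138465479 to 138469303, read 11.0 and 14.04 footprint CPM in sgMETTL13 libraries, against 8.46 and 7.004 CPM in sgControl libraries. The arms did not overlap, and these levels came from 108 and 128 counts in sgMETTL13 and 70 and 41 counts in sgControl. Its log2 fold change was 0.68 (SE 0.232, edgeR adjusted p = 0.0367), a fold of 1.60. The EGR1 call was close to the threshold: it was lost without sgMETTL13 replicate 2 (log2 fold change 0.49, edgeR adjusted p = 0.356) or sgControl replicate 2 (0.55, edgeR adjusted p = 0.220). DESeq2 also missed it (adjusted p = 0.128), as did a fit with the replicate number as a block (edgeR adjusted p = 0.0649). The fit of all 8 libraries, in which 0 of 10714 genes passed, missed it too (edgeR adjusted p = 0.558).

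**Figure D1:**
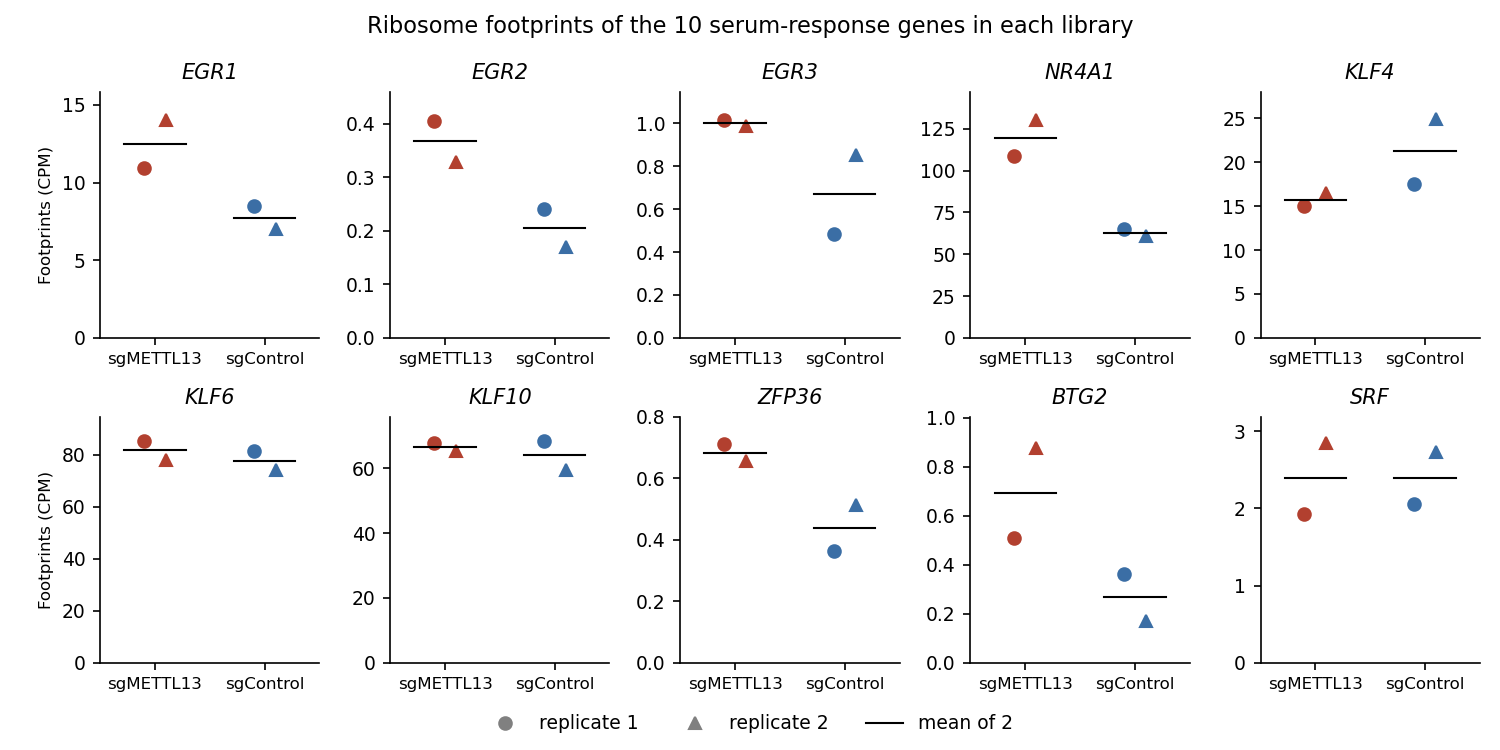
Ribosome footprints of each gene in TMM-normalised CPM (vertical axes from 0, scaled per gene), with sgMETTL13 libraries in red on the left and sgControl libraries in blue on the right; circles are replicate 1, triangles replicate 2 and lines the mean of 2. NR4A1 averages 119.6 CPM in sgMETTL13 and 62.8 CPM in sgControl, and KLF6, KLF10 and SRF overlap between the arms.

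The 3 KLF members did not pass. KLF4, best known as a pluripotency factor and a differentiation factor of epithelia, read 15.0 and 16.4 footprint CPM in sgMETTL13 libraries, against 17.5 and 24.9 CPM in sgControl libraries. It was the member with both sgMETTL13 libraries below both sgControl libraries, and sgControl replicate 2 stood above the other 3. The log2 fold change was -0.42 (SE 0.197, edgeR adjusted p = 0.130, unadjusted p = 0.0433). The KLF4 log2 fold change was -0.66 without sgControl replicate 1 and -0.16 without sgControl replicate 2, each fit holding 1 sgControl library. Without sgControl replicate 1 more of all genes passed than in the main fit, KLF4 among them.

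KLF6, a widely expressed factor that has been described as a tumour suppressor, read 85.4 and 78.0 footprint CPM in sgMETTL13 and 81.2 and 74.0 CPM in sgControl. KLF10, an early gene of the TGF-beta response, read 67.8 and 65.4 CPM in sgMETTL13 and 68.5 and 59.4 CPM in sgControl. For both genes the arms overlapped. The log2 fold change of KLF6 was 0.07 (SE 0.140, 95% interval -0.20 to 0.35) and that of KLF10 was 0.05 (SE 0.144, 95% interval -0.23 to 0.34). Both intervals, taken from the SE by the normal approximation, exclude a change of the size measured for NR4A1.

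SRF, the factor that binds the CArG box, had few footprints and did not pass. It read 1.93 and 2.85 footprint CPM in sgMETTL13 libraries, against 2.05 and 2.73 CPM in sgControl libraries, from 19, 26, 17 and 16 counts. The arms overlapped and the log2 fold change was 0.02 (SE 0.365, edgeR adjusted p = 0.979). Its 95% interval, -0.70 to 0.73, takes in a change of the size measured for EGR1, which was not detectable for SRF at this depth.

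**Figure D2:**
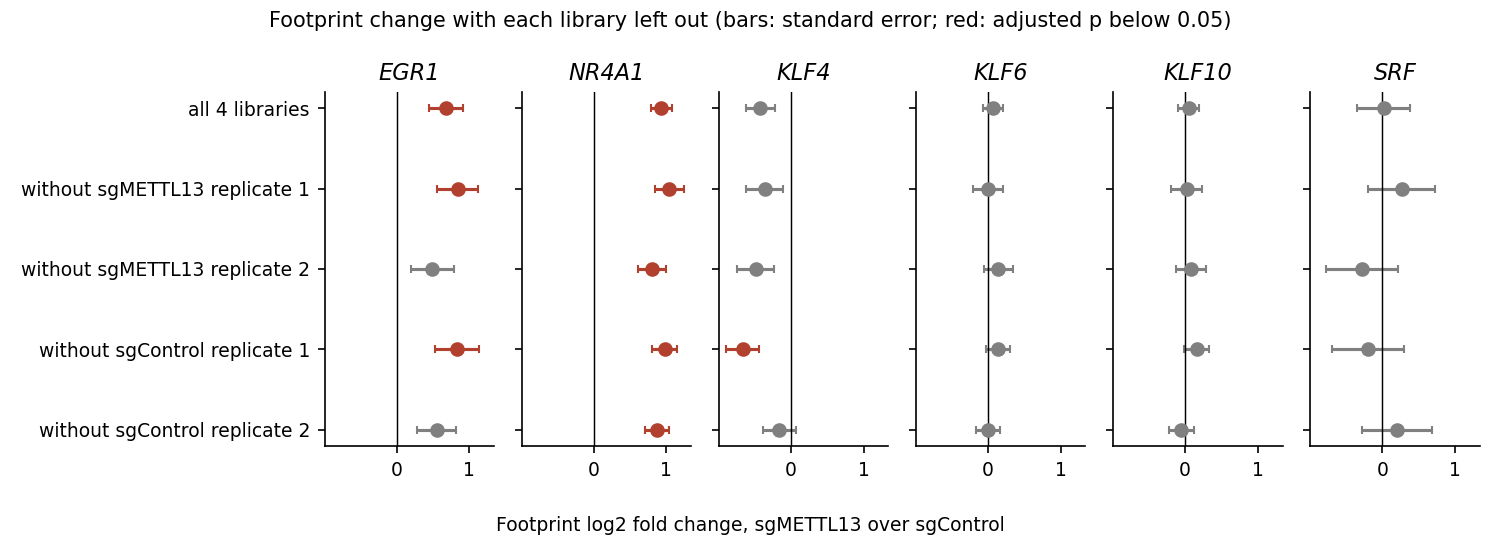
Footprint log2 fold change, sgMETTL13 over sgControl (horizontal axis), of the 6 members tested, fitted on all 4 footprint libraries and with each library left out; bars are standard errors and red points have an adjusted p below 0.05. NR4A1 is red in every row, EGR1 in 3 of 5 and KLF4 in 1, without sgControl replicate 1. A row with a library left out has 1 library in 1 arm, and the number called over all genes differed between these rows.

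EGR2, EGR3, ZFP36 and BTG2 fell below the expression filter in footprints. EGR2, a relative of EGR1 that also directs peripheral myelination, had 4 and 3 footprint counts in sgMETTL13 libraries, against 2 and 1 in sgControl libraries. EGR3 had 10 and 9 counts in sgMETTL13 and 4 and 5 in sgControl. ZFP36 had 7 and 6 counts in sgMETTL13 and 3 and 3 in sgControl. BTG2 had 5 and 8 counts in sgMETTL13 and 3 and 1 in sgControl.

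In CPM both sgMETTL13 libraries lay above both sgControl libraries for each of these 4 genes, but a difference was not detectable at this depth. Summed per arm, ZFP36 held 13 counts in sgMETTL13 (exact Poisson 95% interval 6.92 to 22.2) and 6 in sgControl (2.20 to 13.1), and after scaling to depth the intervals were 0.365 to 1.17 CPM in sgMETTL13 and 0.156 to 0.924 CPM in sgControl. The scaled intervals of the arms overlapped for EGR2, EGR3 and BTG2 as well. Fitted without the filter, BTG2 had the smallest p of the 4 (log2 fold change 1.25, SE 0.920, edgeR adjusted p = 0.419), and the other 3 read 0.65 to 0.77. Over all 10 members, 6 had sgMETTL13 above sgControl with no overlap and 1 below. These 6 include the 4 genes below the filter, and no share over all genes of so few counts was taken. Among the 6 members tested, 2 lay above and 1 below without overlap, where 32.0% of all genes tested lay in each of these classes.

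In mRNA no member differed by the test. edgeR called 0 of the 10 members and 0 of 12468 genes (0% either way), and at an unadjusted p below 0.05 there were 0 members and 100 genes (0.802%). The targeted METTL13, with an mRNA log2 fold change of -1.42, was not called either, so 0 calls do not show that mRNA was unchanged. DESeq2 called 0 genes and limma voom 0. The members' log2 fold changes ran from -0.60 (ZFP36) to 0.67 (NR4A1) with a median of 0.10, beside 0.04 over all genes. With 1 RNA library left out, ZFP36 ran from -0.99 (without sgControl replicate 1) to -0.03 (without sgControl replicate 2), and NR4A1 from 0.33 (without sgMETTL13 replicate 2) to 1.02 (without sgMETTL13 replicate 1). Their standard errors ran from 0.352 to 0.476, against 0.140 to 0.365 for the 6 members tested in footprints.

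NR4A1 mRNA read 195.6 and 300.8 CPM in sgMETTL13 libraries, against 141.4 and 170.04 CPM in sgControl libraries. The arms did not overlap, but the sgMETTL13 replicates were further apart than the nearest libraries of the arms. The mRNA log2 fold change was 0.67 (SE 0.362, edgeR adjusted p = 1.00, unadjusted p = 0.0882). EGR1 mRNA read 53.1 and 59.1 CPM in sgMETTL13, inside the sgControl values of 42.0 and 70.5 CPM, with a log2 fold change of 0.00 (SE 0.410).

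KLF6 mRNA read 118 and 106 CPM in sgMETTL13 libraries, against 80.5 and 79.6 CPM in sgControl libraries, with no overlap and a log2 fold change of 0.49 (SE 0.352). EGR3 mRNA read 13.7 and 10.7 CPM in sgMETTL13 and 5.46 and 10.3 CPM in sgControl, a log2 fold change of 0.64 (SE 0.476). EGR3 passed without sgMETTL13 RNA replicate 2 (log2 fold change 0.81, edgeR adjusted p = 0.0343), a setting in which 2359 genes passed upward and 150 downward. In mRNA 3 members (EGR3, NR4A1 and KLF6) had sgMETTL13 above sgControl with no overlap and 1 (BTG2) below, where 5.11% and 6.84% of all genes tested did so.

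EGR2, KLF4, KLF10, ZFP36 and SRF overlapped between the arms in mRNA. EGR2 read 1.71 and 1.99 mRNA CPM in sgMETTL13 and 1.184 and 1.88 CPM in sgControl, the lowest counts of the group. KLF4 read 77.5 and 71.4 CPM in sgMETTL13 and 52.0 and 77.6 CPM in sgControl, and KLF10 read 87.4 and 67.4 CPM in sgMETTL13 and 65.2 and 104.3 CPM in sgControl. In both KLF genes the sgControl replicates bracketed the sgMETTL13 values.

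ZFP36 read 18.8 and 23.3 mRNA CPM in sgMETTL13 and 21.5 and 42.4 CPM in sgControl, a log2 fold change of -0.60 (SE 0.463). BTG2, without overlap, read 19.6 and 20.2 CPM in sgMETTL13 and 21.2 and 26.3 CPM in sgControl. SRF read 114 and 169 CPM in sgMETTL13 and 143 and 209 CPM in sgControl. For ZFP36, BTG2 and SRF alike sgControl replicate 2 was the highest of the 4 RNA libraries. Of the 10 members, 9 had more mRNA in sgControl replicate 2 than in sgControl replicate 1, KLF6 being the exception.

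**Figure D3:**
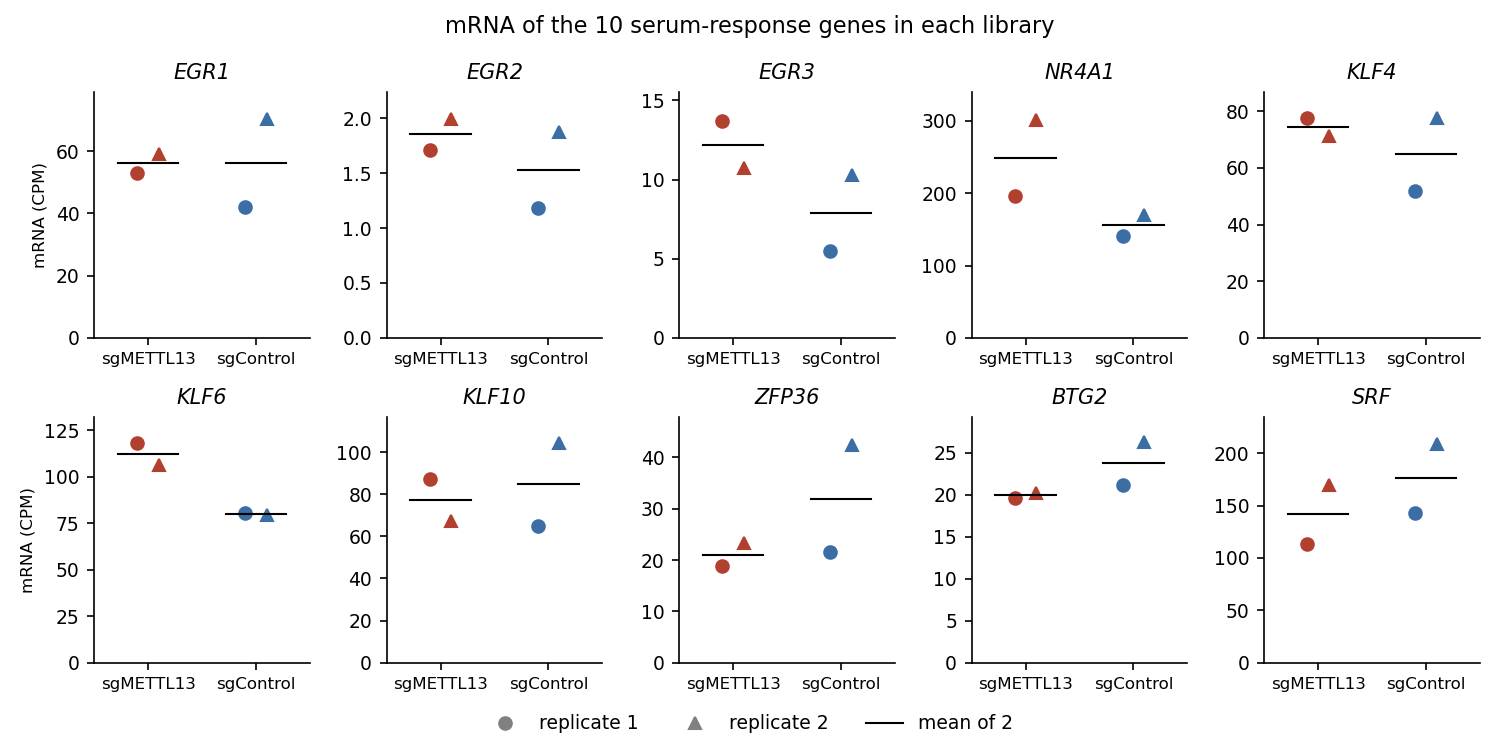
mRNA of each gene in TMM-normalised CPM (vertical axes from 0, scaled per gene), with sgMETTL13 libraries in red on the left and sgControl libraries in blue on the right; circles are replicate 1, triangles replicate 2 and lines the mean of 2. NR4A1 averages 248.2 CPM in sgMETTL13 and 155.7 CPM in sgControl with wide spread in sgMETTL13, and the EGR1 arms overlap.

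Footprints per mRNA, tested as the interaction of assay and guide over all 8 libraries, differed for no member. edgeR called 0 of 6 members and 0 of 10446 genes (0%), and at an unadjusted p below 0.05 there were 0 members and 352 genes (3.37%). DESeq2 called 0 members, 1 gene upward and 4 downward, and limma voom called 0 genes. EGR1 had the largest upward value, a log2 difference in efficiency of 0.69 (SE 0.448, edgeR adjusted p = 0.996), while KLF4 read -0.63 (SE 0.413) and KLF6 -0.42 (SE 0.306). Without sgControl RNA replicate 1 the EGR1 value was 1.00 and without sgControl RNA replicate 2 it was 0.27. The KLF4 value ran from -0.94 without sgControl RNA replicate 2 to -0.36 without sgControl footprint replicate 2. NR4A1 read 0.26 (SE 0.376), and the median of all genes in this contrast was -0.13. With standard errors of this size, how far the footprint differences of NR4A1 and EGR1 lay in their mRNA levels could not be told.

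**Figure D4:**
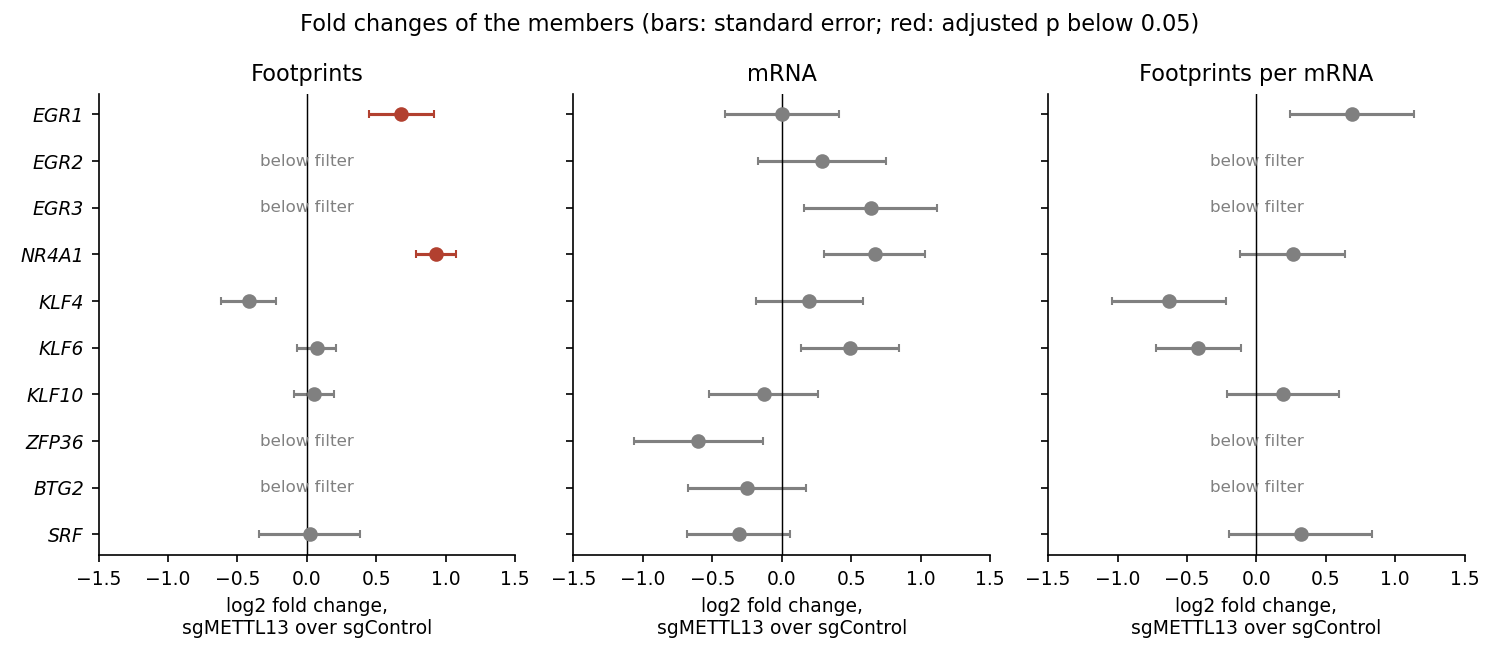
Log2 fold change, sgMETTL13 over sgControl (horizontal axes), of each gene in footprints, in mRNA and in footprints per mRNA; bars are standard errors, red points have an adjusted p below 0.05, and genes without a point were below the expression filter. NR4A1 at 0.93 and EGR1 at 0.68 pass in footprints, and no gene passes in mRNA or in footprints per mRNA.

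The members differed widely in how many footprints they had for their mRNA. The log2 ratio of footprint to mRNA CPM (0.5 counts added to each) was taken between libraries of the same guide and replicate number, which the labels do not tie to 1 lysate, and set against the median of the 12468 genes tested in mRNA. RNA reads cover whole mRNAs and footprints mainly their translated part, and no lengths were used, so the order of genes on this scale is a description with no test. KLF6 and KLF10 lay near the median gene, at the 52.1 and 57.8 percentile in sgMETTL13 and the 59.6 and 52.2 percentile in sgControl. NR4A1 lay at the 39.8 percentile in sgMETTL13 and the 33.4 in sgControl.

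The EGR genes and KLF4 lay lower. EGR1 lay at the 20.6 percentile in sgMETTL13 and the 13.6 in sgControl, EGR2 at 20.8 in sgMETTL13 and 17.2 in sgControl, and EGR3 at 8.10 in sgMETTL13 and 9.23 in sgControl. KLF4 lay at the 19.6 percentile in sgMETTL13 and the 28.3 in sgControl. These 4 genes therefore read fewer footprints per mRNA than most genes in both arms. The place of EGR2 rests on 4 and 3 footprint counts in sgMETTL13 and 2 and 1 in sgControl, and is uncertain. That of EGR3 rests on 10 and 9 counts in sgMETTL13 and 4 and 5 in sgControl.

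SRF, ZFP36 and BTG2 lay low in the distribution in each of these 4 pairs of libraries. The SRF ratio was 37.0 and 41.4 times below the median gene in sgMETTL13 replicates 1 and 2, and 49.2 and 53.3 times below it in sgControl replicates 1 and 2. Its percentile was 1.66 and 1.58 in sgMETTL13 and 1.32 and 1.33 in sgControl. SRF thus combined 113.7 to 208.8 mRNA CPM with 1.93 to 2.85 footprint CPM. ZFP36 lay at the 4.09 and 2.86 percentile in sgMETTL13 libraries and at 1.79 and 1.40 in sgControl libraries, and BTG2 at 2.76 and 4.20 in sgMETTL13 and at 1.82 and 1.02 in sgControl. For ZFP36 and BTG2 the sgMETTL13 ratios lay above the sgControl ratios in both replicates, on 13 footprints each in sgMETTL13 and 6 and 4 in sgControl. Fitted without the filter, the efficiency difference was 1.29 for ZFP36 (SE 0.759, edgeR adjusted p = 0.995) and 1.54 for BTG2 (SE 0.707, edgeR adjusted p = 0.995, unadjusted p = 0.0521), so neither passed.

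**Figure D5:**
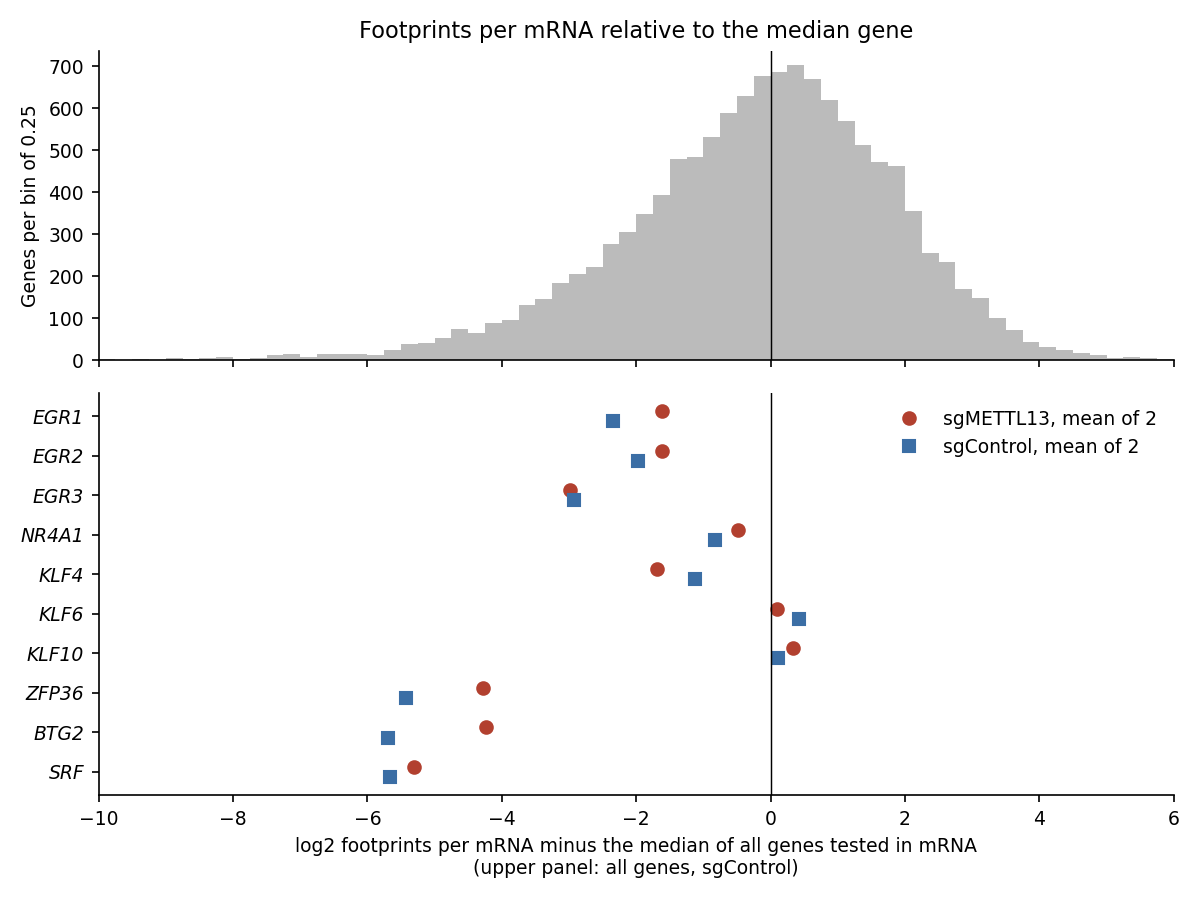
Log2 footprints per mRNA minus the median of the 12468 genes tested in mRNA (horizontal axis); the upper panel counts all genes in sgControl and the lower panel gives each member in sgMETTL13 (red circles) and sgControl (blue squares), each the mean of 2 pairs of same-numbered libraries. SRF, BTG2 and ZFP36 lie between -5.69 and -4.24, in the lowest 3.25 percent of genes in sgMETTL13 and the lowest 1.40 percent in sgControl.

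Relatives and partners were spread over the same scale. In sgMETTL13 and sgControl, ZFP36L1 lay at the 38.7 and 28.7 percentile, ZFP36L2 at 11.6 and 20.9, and BTG1 at 34.5 and 39.5. Of 16 other serum-induced early genes, none lay under the 5 percentile in sgControl, and their median percentile was 42.2 in sgMETTL13 and 45.7 in sgControl, beside 20.1 in sgMETTL13 and 15.4 in sgControl for the 10 members. The KLF relatives had lower medians than the members, 5.41 in sgMETTL13 and 6.38 in sgControl, as did the SRF cofactors, 7.41 in sgMETTL13 and 7.15 in sgControl. Among 7 other KLF genes 2 lay under the 5 percentile in sgControl, KLF16 and KLF5, and among 5 SRF cofactors 2 did, MRTFB and ELK3. The difference between these lists was not tested.

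The partners of the members moved in footprints in both directions. Over all 10714 genes tested 8.94% passed upward and 12.0% downward, and the counts of passed genes in these short lists are a description. All 3 NR4A receptors rose: NR4A2 read 14.4 and 16.1 footprint CPM in sgMETTL13 libraries, against 7.49 and 3.76 CPM in sgControl libraries (log2 fold change 1.38, SE 0.252, edgeR adjusted p = 3.13e-04). NR4A3 read 10.5 and 12.6 CPM in sgMETTL13, against 5.197 and 5.47 CPM in sgControl (1.11, SE 0.247, edgeR adjusted p = 0.00196). Both passed in each of the 4 fits that leave out a footprint library, NR4A2 with values from 1.02 to 2.02. NAB2, the corepressor that EGR proteins induce and are restrained by, read 195.5 and 177 CPM in sgMETTL13 and 229.7 and 277.8 CPM in sgControl, and fell (log2 fold change -0.44, edgeR adjusted p = 0.0154), a call lost without sgMETTL13 replicate 2 (edgeR adjusted p = 0.244) or sgControl replicate 2 (edgeR adjusted p = 0.199). EGR4 read 0.70 (SE 0.362) without passing. Of these 5 partners, with NAB1, 2 rose and 1 fell in footprints, with a median log2 fold change of 0.70, and 0 passed in mRNA or efficiency.

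Upstream of the members, 2 of 4 SRF cofactors tested fell in footprints and none rose, where 12.0% of all genes tested fell and 8.94% rose. ELK1, the ternary complex factor that ERK phosphorylates, read 13.5 and 9.76 footprint CPM in sgMETTL13 libraries, against 23.0 and 30.2 CPM in sgControl libraries (log2 fold change -1.18, SE 0.203, edgeR adjusted p = 1.67e-04), and passed in each of the 4 fits that leave out a library. MRTFA read 11.4 and 10.6 CPM in sgMETTL13 and 14.1 and 19.5 CPM in sgControl (-0.59, edgeR adjusted p = 0.0432) but missed the threshold without sgMETTL13 replicate 1 or 2 or sgControl replicate 2 (edgeR adjusted p = 0.0907 to 0.419), and with library totals, limma voom, DESeq2 or the replicate block (adjusted p = 0.0543 to 0.128). ELK3 and ELK4 read 0.85 (SE 0.422) and 0.34 (SE 0.305) without passing. Among 4 KLF relatives tested, KLF5 and KLF3 rose by 0.91 and 0.48, and none fell. Among 6 ZFP36 and BTG/TOB relatives, ZFP36L2 fell (log2 fold change -0.80) and TOB1 rose (0.40). Without sgMETTL13 replicate 1 or 2 or sgControl replicate 2, KLF3 (edgeR adjusted p = 0.0796 to 0.322) and TOB1 (0.0875 to 0.408) missed the threshold. TOB1 also missed it with DESeq2 size factors in edgeR, library totals, limma voom, DESeq2 and the replicate block (adjusted p = 0.0504 to 0.0889), and KLF3 with DESeq2 and the block (adjusted p = 0.0933 and 0.0753). KLF5 and ZFP36L2 missed it without sgMETTL13 replicate 2, while ZFP36L1 passed there (log2 fold change 0.67) and without sgControl replicate 1 (0.91), against 0.45 in all libraries. ZFP36L1 also passed with the replicate block (edgeR adjusted p = 0.0400) and with no filter (edgeR adjusted p = 0.0180). It missed the threshold with DESeq2 size factors in edgeR, library totals, limma voom and DESeq2 (adjusted p = 0.0690 to 0.507).

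Genes downstream or induced beside the members split as well, where 8.94% of all genes tested rose and 12.0% fell. Of 16 other serum-induced early genes tested in footprints 4 rose and 3 fell, with a median log2 fold change of 0.08. CCN1 and CCN2, matricellular proteins, rose by 1.23 and 0.98, while IER2 and IER5 had values of -1.04 and -0.84. Of 11 cytoskeletal targets of MRTF and SRF 2 rose and 3 fell (median -0.13), with ACTB, which can share reads with its near-identical paralog ACTG1, at 0.59, against TPM1 at -0.72, ZYX at -0.60 and TPM4 at -0.46. Of 6 mRNAs bound by ZFP36 that were tested, PTGS2 (0.98) and CXCL8 (0.69) rose and CCND1 (-0.71) and PLAUR (-0.42) fell. CCN1, CCN2, IER2, IER5, PTGS2 and CCND1 passed in each of the 4 fits that leave out a library. Without sgMETTL13 replicate 2, ACTB, ZYX, TPM1, TPM4 and PLAUR missed the threshold (edgeR adjusted p = 0.0502 to 0.468). Without sgControl replicate 2, TPM4, CXCL8 and PLAUR did (edgeR adjusted p = 0.173 to 0.428), CXCL8 with a log2 fold change of 0.38, against 1.11 without sgControl replicate 1. PLAUR also missed it with library totals, DESeq2 or the replicate block (adjusted p = 0.0517 to 0.0697). In the fit of all 8 libraries 0 genes of any list passed, as 0 of all genes did. No gene of these lists passed in mRNA or in efficiency.

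Over the 8 libraries the genes whose profile lay nearest to that of EGR1 were TFAP2C, SRP14, ARHGAP26, BCAS3 and PDXDC1. Profiles were log2(CPM + 1) centred within each assay, for genes with a mean of at least 5 CPM in both assays. The root mean square distance was 0.113 to 0.134 for these 5, against a median of 0.413 over 8158 genes. With 8 libraries such nearness is a description of these libraries.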

How the data were processed

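The authors deposited raw counts per gene symbol for 8 libraries. The submitters' processing notes name hg38, cutadapt 1.18, Bowtie 1.2.2, HISAT2 2.0.4, UMI-tools and featureCounts; their roles, the annotation, the strand setting and the handling of multi-mapping reads are not given in the sources used here. Coordinates come from RefSeq GRCh38.p14.

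From these counts, edgeR 4.0.16 (R 4.3.3) quasi-likelihood tests were fitted over all genes, normalised by TMM and filtered with edgeR's filterByExpr (minimum count 10) within each assay, on the 4 footprint libraries, the 4 RNA libraries, and all 8 for footprints per mRNA. P-values were adjusted by Benjamini-Hochberg over all genes tested, with 0.05 as threshold. A standard error (SE) is the log2 fold change divided by the root of its F statistic. Alternatives were DESeq2 1.42.0, limma 3.58.1 voom, other size factors, no filter, a replicate block, a joint fit and leaving out each library. A level per coding length was not computed, so levels are not compared between genes.

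The fits were tested on simulated data. The members and gene lists were chosen with earlier results of these data known. Named besides the members are METTL13, up to 4 genes per list with the smallest footprint p, and the 5 genes nearest to EGR1. Cell type markers are named as a check of the cells. NAB1, MRTFB, KLF16, BTG1 and ACTG1 were named after their values were seen.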

Additional observations from a re-analysis of the deposited data

How the results depend on the processing

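The mRNA libraries set the limit on what these genes can show, since standard errors there ran from 0.352 to 0.476, and EGR2, EGR3, ZFP36 and BTG2 had at most 10 footprints per library. The labels pair no replicates, and same-numbered libraries of the 2 guides deviated with a correlation of -0.213 in footprints and 0.425 in mRNA. Members called in footprints numbered 2 in the main analysis and 2 with other size factors, library totals, no filter or limma voom. They numbered 1 (NR4A1) with DESeq2, 1 with the replicate block and 0 in the fit of all 8 libraries, and 1 to 3 with each footprint library left out. A crossed pairing of the replicates, added after seeing the data, called 2 members, with 1513 genes higher and 1707 lower. Members called in mRNA numbered 0, and 0 to 1 with each RNA library left out. In efficiency they numbered 0 with other size factors, library totals, no filter, DESeq2, limma voom and the block on same-numbered libraries of a guide. Over all genes these fits called 0, except DESeq2 with 1 higher and 4 lower. An efficiency fit with a library left out holds 1 library in a group, and the number of genes it called depended strongly on the library removed. Its lack of member calls is therefore not counted here, and the cause of each lost call was not tested.

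Signs turned for some values that had not passed their test. SRF footprints read -0.01 with limma voom and with the replicate block, and -0.28 to 0.27 with each library left out. KLF10 footprints ran from -0.05 to 0.16 and KLF6 from 0.00 to 0.14. EGR1 mRNA read 0.07 with limma voom and 0.04 with the replicate block, and -0.31 to 0.42 with each library left out, as KLF4 ran from -0.05 to 0.51, KLF10 from -0.42 to 0.25 and SRF from -0.63 to 0.01. Efficiency ran from -0.09 to 0.60 for NR4A1 and from -0.19 to 0.48 for KLF10. Over all genes, 716 were called higher and 1013 lower in footprints with the replicate block, 611 and 885 with DESeq2, and 0 with either sign in the fit of all 8 libraries (995 at an unadjusted p below 0.05), against 958 and 1287. With a footprint library left out, 1 arm holds 1 library. The number of genes called then rose without sgControl replicate 1 and fell without each of the others.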
